A study of Mus musculus with 12 samples.

Results

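The genes described here are a list of 30 transcription factors and cofactors linked to sensory neuron identity. Some of them, such as Skor2 and Lmx1b, are better known from other neurons. They were taken by name from the 55416 genes counted in trigeminal ganglia of adult mice. All 30 were matched to 1 gene each, and 28 passed the filter on low counts; Neurod6 and Nhlh1 did not. The study asked what the loss of Prdm12 does in the mature ganglion, and RNA-seq was made from 6 ganglion samples labelled iKO (induced knockout) and 6 controls, all C57Bl6 adults, 1 month after injection.

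Every iKO animal carried Rosa26CreERT2 and 2 floxed Prdm12 alleles and was given tamoxifen; iKO 1, 2 and 3 were female and iKO 4, 5 and 6 male. The controls were mixed. Control 1, a female, had the Cre and 1 floxed allele, while control 2, a female, and control 3, a male, had 1 floxed allele and no Cre. Control 4, a male, had the Cre and no floxed allele, and these 4 controls also received tamoxifen. Controls 5 and 6, both male, had the iKO genotype but were injected with corn oil, the vehicle. The Rosa26 locus is active in nearly all cell types, so this Cre is not specific to neurons; recombination by cell type was not measured here. Nothing in the labels says what a shared replicate number means, and the p-values below measure the spread between these samples.

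Sensory neurons of the trigeminal ganglion carry touch, temperature and pain from the face. In the development of sensory neurons in general, proneural basic helix-loop-helix factors start the neuronal programme. LIM-homeodomain and POU factors give it its sensory character. Later factors such as Runx1 and Runx3 divide such neurons into nociceptors, which sense harm, and large myelinated touch and stretch neurons. These types are not all found in every ganglion. Prdm12 is a zinc-finger regulator of the PR domain family that nociceptors need in order to form, and many of these factors stay active in the adult.

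The libraries held between 13207526 and 24178970 counted reads. Prdm12 itself, the check of the labels, lay between 56.84 and 132.7 CPM (reads of the gene scaled to library size by the TMM method) in the controls and between 13.18 and 19.13 CPM in the iKO libraries (log2 fold change -2.64, edgeR adjusted p = 2.7e-05). The 16 pan-sensory neuron markers were all detected, with a summed level of 20070 to 24740 CPM in controls and 20660 to 24790 CPM in iKO. None of the 16 passed an adjusted p of 0.05 by edgeR. At an unadjusted p under 0.05, 3 were lower in iKO and 0 higher (18.8% against 10.9% of all genes). DESeq2 called 1, Elavl3, lower (log2 fold change -0.24, DESeq2 adjusted p = 0.0418), beside 2% of all genes. Control 6 had the highest summed satellite glia (8264 CPM) and lymphocyte (24.14 CPM) markers. It was also highest for myelinating Schwann cell (12940 CPM), fibroblast and meningeal (3629 CPM) and brain (1258 CPM) markers. The skeletal muscle markers were highest in iKO 5 (1084 CPM, against at most 328 CPM in any other library).

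In the control ganglia the genes ranged over nearly the whole span of expression. Per kilobase of exon, the scale on which genes can be set against each other, Isl2 was highest at 62.8 ± 8.92 CPM per kb (SD, n = 6), above 96.3% of all genes tested. Isl1 followed at 38.9 ± 3.35 and Klf7 at 33.8 ± 3.27 CPM per kb, with Pou4f1 at 33.2, Tlx3 at 31.9 and Prrxl1 at 30.7. These upper ranks hold 3 of the 5 LIM-homeodomain and POU factors together with 3 factors of the nociceptor group.

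Tshz2, Ldb2, Maf, Hoxd1, Mafa, Etv5 and Pou4f3 came next, between 21.4 and 11.6 CPM per kb. Skor2 stood in the lower part of the order at 3.52 CPM per kb, between Pou4f2 at 3.75 and Etv1 at 3.11. The proneural factors lay near the bottom: Neurod1 reached 0.916 and Nhlh2 0.451 CPM per kb, while Neurod6 and Nhlh1 were at 0.0817 and 0.0744. Of the neighbours in this order, 6 pairs had ranges over the control libraries that did not touch, among them Isl2 and Isl1, Bcl11b and Neurod1, and Neurod1 and Nhlh2; the other neighbours overlapped.

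**Figure D1:**
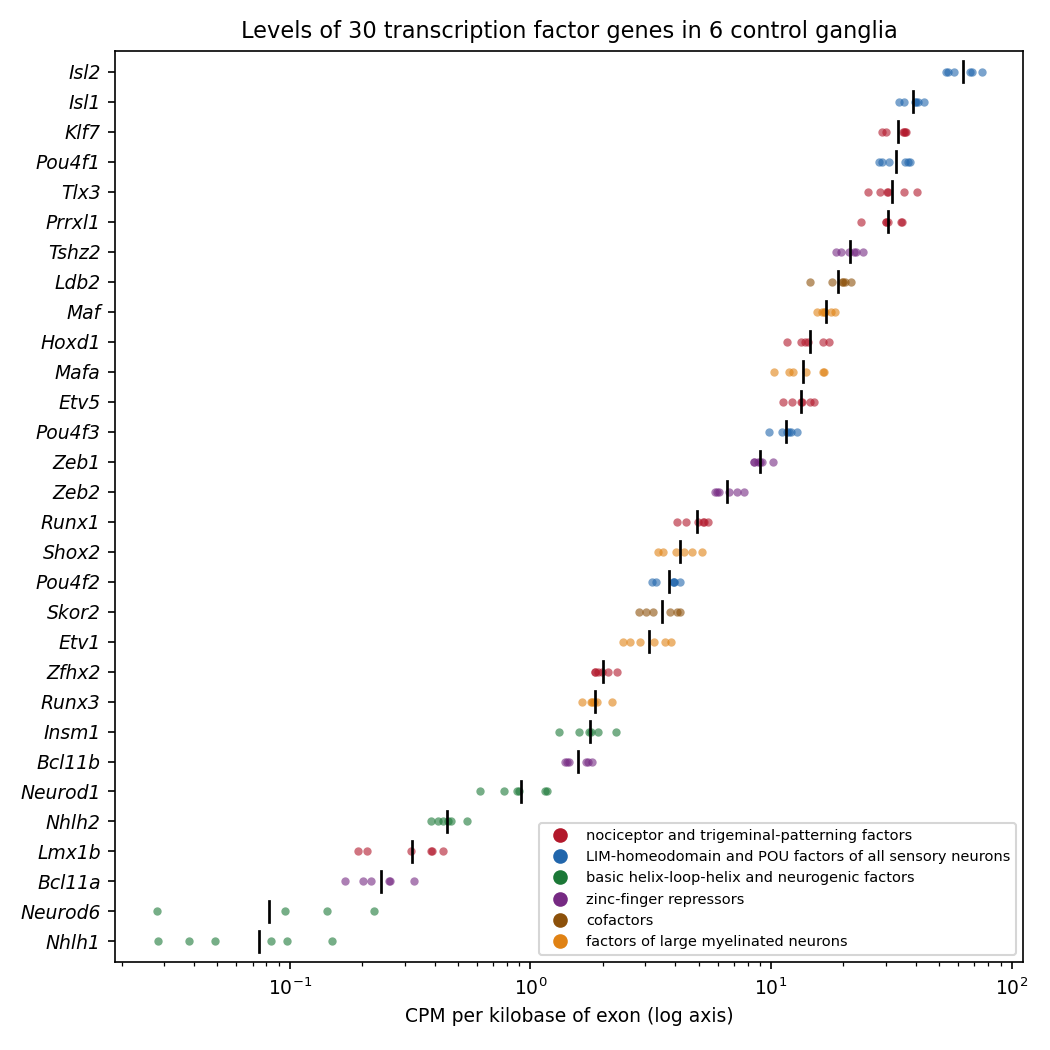
Levels of the 30 genes in the 6 control libraries, in CPM per kilobase of exon on a log axis, coloured by the genes' roles; libraries with 0 reads (Neurod6) cannot be drawn on this axis. Isl2 leads at 62.8 CPM per kb and Neurod6 and Nhlh1 lie below 0.1.

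Across the comparison of all 6 iKO with all 6 control libraries, 1 of the 28 tested genes rose and none fell at an adjusted p under 0.05 (edgeR quasi-likelihood test with sex as a covariate), beside 0.379% of all 16637 genes called in either direction, 0.174% higher and 0.204% lower; DESeq2 also called 1, beside 2% of all genes. The gene was Skor2. The list was chosen with earlier results of these data known. Its shares beside those of all genes, here and below, are descriptive and no independent support. At an unadjusted p under 0.05, 3 were higher and 2 lower, or 17.9% of the 28 against 10.9% of all genes. The median log2 fold change over the 28 was -0.07, with 10 positive and 18 negative, where the median of all genes was 0.0011. In bulk tissue, fewer cells of a type and less RNA per cell cannot be told apart.

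Over all 12 libraries, the small changes were also bounded. For 25 of the 28 genes the 95% interval of the fold change lay wholly within 1.5-fold in either direction, 89.3% against 78.1% of all genes; the exceptions were Skor2, Lmx1b and Nhlh2. Within the replicate sets fewer were so bounded. In replicates 1 to 4 it was 22 of the 28 (78.6% against 71.5% of all genes). In replicates 5 and 6 it was 19 (67.9% against 61.5%). In simulated data of the 12-library comparison the test recovered 71% of 1.5-fold changes and 83% of 2-fold changes. The changed genes were drawn from those with a mean of at least 1 CPM. By each fold 100 genes were changed, where the data gave 63 calls in all. The simulated data held no effect of sex or cell content. The recovered shares may therefore be too high for these data.

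**Figure D2:**
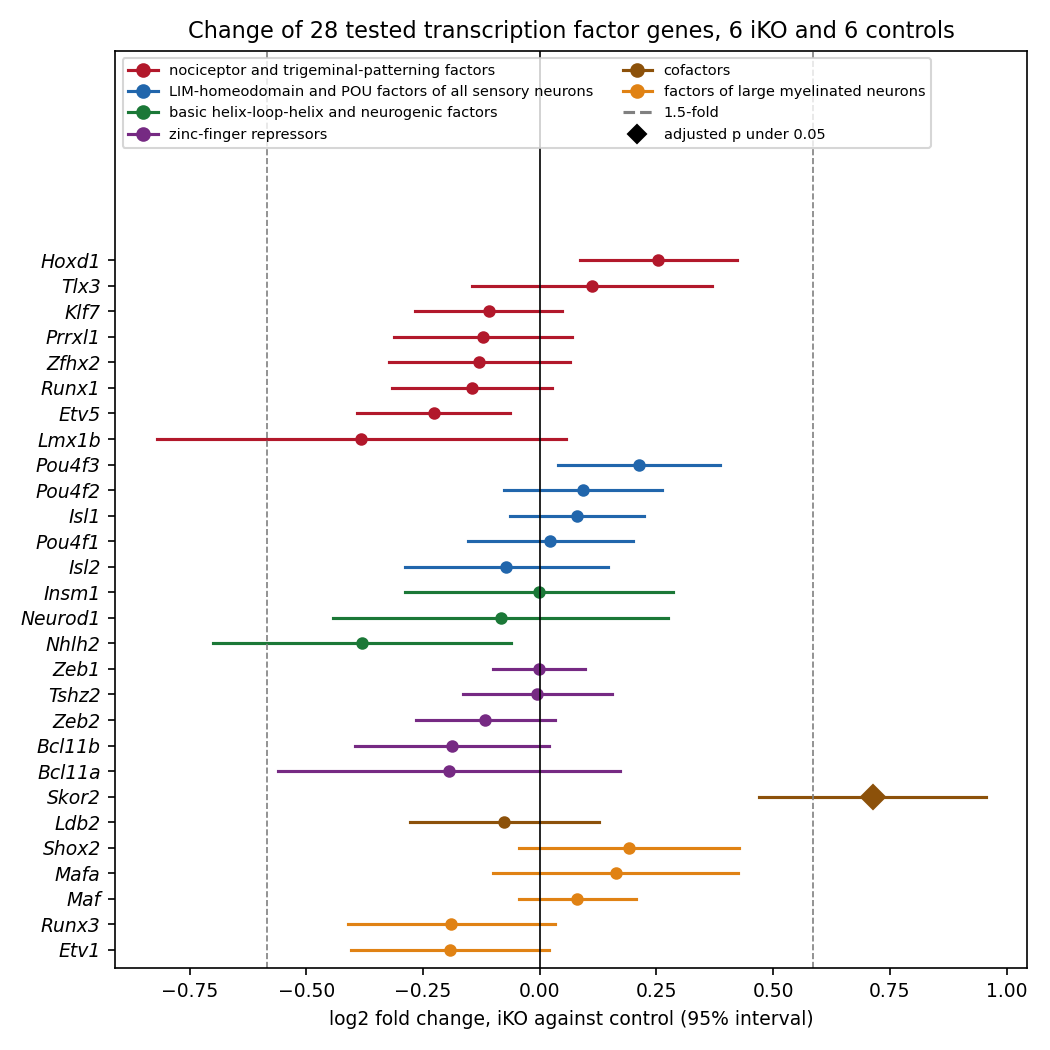
Log2 fold change of iKO against control for the 28 tested genes, with 95% intervals, coloured by role; dashed lines mark 1.5-fold and the diamond marks an adjusted p under 0.05. Skor2 stands apart at 0.71, and the other 27 lie between -0.38 and 0.25.

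Skor2 (ENSMUSG00000091519), a corepressor of the Ski family known from the differentiation of cerebellar Purkinje cells, was the gene that rose. Controls 1 to 6 had 10.2, 8.87, 12.8, 11.9, 13.2 and 9.46 CPM, and iKO 1 to 6 had 18.3, 13.9, 18.6, 21.2, 16.8 and 16.9 CPM. Every iKO library lay above every control; the narrowest gap was between iKO 2 and control 5. Such a separation was seen in 1 of the 28 genes (3.57%) and in 1.2% of all genes. The means were 11.1 ± 1.83 and 17.6 ± 2.45 CPM (SD, n = 6 each). This was a difference of 0.71 on the log2 scale (SE 0.112, edgeR adjusted p = 0.018).

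The sign of the Skor2 change was positive in all 26 settings tried for this comparison, from 0.63 to 0.85, and the call held in 18. It was lost without control 1 (adjusted p = 0.0641), without control 2 (0.0827) or without iKO 1 (0.0524). With tamoxifen-injected animals alone the log2 fold change was 0.70 (adjusted p = 0.0517), and with the replicate number as a block it was 0.70 (adjusted p = 0.0655). Without control 6 and iKO 5, a setting chosen after seeing the data, it was 0.71 (adjusted p = 0.024). The smaller subsets also lost the call: males alone gave 0.63 (adjusted p = 0.511), females alone 0.85 (0.382) and animals with Cre and 2 floxed alleles 0.69 (0.719). Ldb2, the other cofactor, binds LIM-homeodomain proteins such as Isl1; it ranged from 48.6 to 71.6 CPM in controls and from 52.0 to 67.0 CPM in iKO (log2 fold change -0.08, edgeR adjusted p = 0.821).

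None of the 8 nociceptor and trigeminal-patterning factors passed the threshold by edgeR or by DESeq2. At an unadjusted p under 0.05 there were 2, 1 in each direction (25% against 10.9% of all genes). Each class holds few genes, so such shares, here and below, say little about a class. Hoxd1, a homeobox gene that in mouse shapes the wiring of nociceptors, had 21.8 to 32.3 CPM in controls (median 26.1) and 29.0 to 33.1 CPM in iKO (median 31.8). The iKO libraries were tightly grouped, overlapping the upper part of the control range and reaching just above it. Its log2 fold change was 0.25 (SE 0.0776, edgeR adjusted p = 0.215). Etv5, an ETS-domain factor, had 46.0 to 61.8 CPM in controls (median 54.8) and 40.9 to 51.3 CPM in iKO (median 45.6). The groups overlapped, with controls 1 and 6 within the iKO range, and the log2 fold change was -0.23 (SE 0.0758, edgeR adjusted p = 0.27).

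Klf7, a Krüppel-like factor that nociceptors need to survive, was the gene with the highest CPM. It had 236.1 to 295.2 CPM in controls (median 288) and 222.9 to 277.3 CPM in iKO (median 259). Controls 1, 3, 4 and 5 lay above every iKO library and controls 2 and 6 within the iKO range, and the log2 fold change was -0.11 (95% interval -0.27 to 0.05, edgeR adjusted p = 0.629). Lmx1b, a LIM-homeodomain factor of dorsal spinal cord and serotonin neurons, was low, at 0.94 to 2.11 CPM in controls and 1.06 to 1.66 CPM in iKO. The controls given tamoxifen were the 4 highest of their group and controls 5 and 6 the lowest of all libraries. Its log2 fold change was -0.38 with a wide interval (-0.82 to 0.06, edgeR adjusted p = 0.53).

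Runx1, which sets the non-peptidergic nociceptor type, had 59.0 ± 6.59 CPM in controls and 53.6 ± 4.32 CPM in iKO (log2 fold change -0.15, edgeR adjusted p = 0.541). Tlx3 and Prrxl1, homeodomain factors of nociceptors and their spinal targets, had log2 fold changes of 0.11 (adjusted p = 0.781) and -0.12 (adjusted p = 0.664). Zfhx2, a zinc-finger homeobox gene tied to human pain insensitivity, had 33.7 to 41.6 CPM in controls and 25.5 to 39.0 CPM in iKO (log2 fold change -0.13, edgeR adjusted p = 0.646). Each of these 4 overlapped between the groups.

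None of the 5 LIM-homeodomain and POU factors passed by edgeR or DESeq2. At an unadjusted p under 0.05 there was 1 (20% against 10.9% of all genes). That gene was Pou4f3, best known from auditory hair cells, with 23.5 to 30.7 CPM in controls (median 28.2) and 29.1 to 38.5 CPM in iKO (median 31.6). The groups overlapped narrowly: control 4 lay above the 2 lowest iKO libraries, and iKO 4 was far above the rest. The log2 fold change was 0.21 (SE 0.0804, edgeR adjusted p = 0.343). Isl1, needed for the sensory programme as a whole, had 134.8 to 171.1 CPM in controls (median 158) and 146.9 to 180.4 CPM in iKO (median 161), and its log2 fold change was 0.08 (95% interval -0.06 to 0.22, edgeR adjusted p = 0.715). Controls 2 and 6 lay below every iKO library and iKO 2 above every control, and the other libraries overlapped.

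Pou4f1, the partner of Isl1 in sensory neurons, had a mean of 155 CPM in both groups (SD 20.4 in controls and 14.3 in iKO), and its log2 fold change was 0.02 (edgeR adjusted p = 0.947). Isl2 had 138 ± 19.6 CPM in controls and 128 ± 22.2 CPM in iKO (log2 fold change -0.07, adjusted p = 0.848). Pou4f2, known from retinal ganglion cells, ranged from 10.3 to 13.4 CPM in controls and from 11.5 to 13.3 CPM in iKO (log2 fold change 0.09, adjusted p = 0.719). The groups of these 3 overlapped.

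Of the 5 basic helix-loop-helix and neurogenic factors 3 were tested, and none passed by edgeR or DESeq2. Of these 3, 1 had an unadjusted p under 0.05 (33.3% against 10.9% of all genes). This was Nhlh2, a helix-loop-helix factor of differentiating neurons. It had 2.10 to 2.96 CPM in controls (median 2.41) and 1.49 to 2.35 CPM in iKO (median 1.99). The 2 lowest libraries were iKO 5 and iKO 6, and the groups overlapped. The log2 fold change was -0.38 (SE 0.147, edgeR adjusted p = 0.356), from 30 to 50 reads a library.

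Neurod1, a proneural factor, differed by -0.08 on the log2 scale (edgeR adjusted p = 0.896) and Insm1, a zinc-finger factor of neurogenesis, by -0.0016 (adjusted p = 0.999). Neurod6 had 0 to 8 reads a library, with 0 in controls 1 and 6 and in iKO 1 and 2. Nhlh1 had 1 to 6 reads a library. Most of these library values lay at or below the level that 3 reads give, so no fold is given for either gene. Neurod1 overlaps Cerkl on the same strand, so reads of these genes may not be separated.

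None of the 5 zinc-finger factors passed, by edgeR or DESeq2, and none had an unadjusted p under 0.05, against 10.9% of all genes. Tshz2, a teashirt-family factor, had 145.3 to 187.9 CPM in controls and 145.8 to 188.4 CPM in iKO, nearly the same span (log2 fold change -0.005, edgeR adjusted p = 0.989). Zeb1, a repressor also known from epithelial cells, was likewise close to 0 at -0.00096 (adjusted p = 0.998). Its relative Zeb2 ranged from 116.5 to 153.8 CPM in controls and from 111.3 to 130.9 CPM in iKO (log2 fold change -0.12, adjusted p = 0.589). Bcl11a and Bcl11b, partners in chromatin repression, both had a log2 fold change of -0.19 (adjusted p = 0.728 and 0.517). All 5 overlapped between the groups.

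The 5 factors of large myelinated neurons also gave no call by either tool and no unadjusted p under 0.05, against 10.9% of all genes. Etv1, an ETS factor of muscle stretch neurons, had 32.3 to 51.3 CPM in controls (median 40.7) and 31.7 to 40.4 CPM in iKO (median 37.2). The controls were far more spread (SD 7.63 against 3.2), and the log2 fold change was -0.19 (SE 0.098, edgeR adjusted p = 0.516). Runx3, which sets the stretch neuron type, had a log2 fold change of -0.19 (adjusted p = 0.539). Shox2, a homeobox factor of touch neurons, had one of 0.19 (adjusted p = 0.569), and it overlaps Rsrc1 on the opposite strand, whose reads an unstranded library cannot separate. Maf and Mafa, leucine-zipper factors of touch receptors, had log2 fold changes of 0.08 (adjusted p = 0.662) and 0.16 (adjusted p = 0.675).

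**Figure D3:**
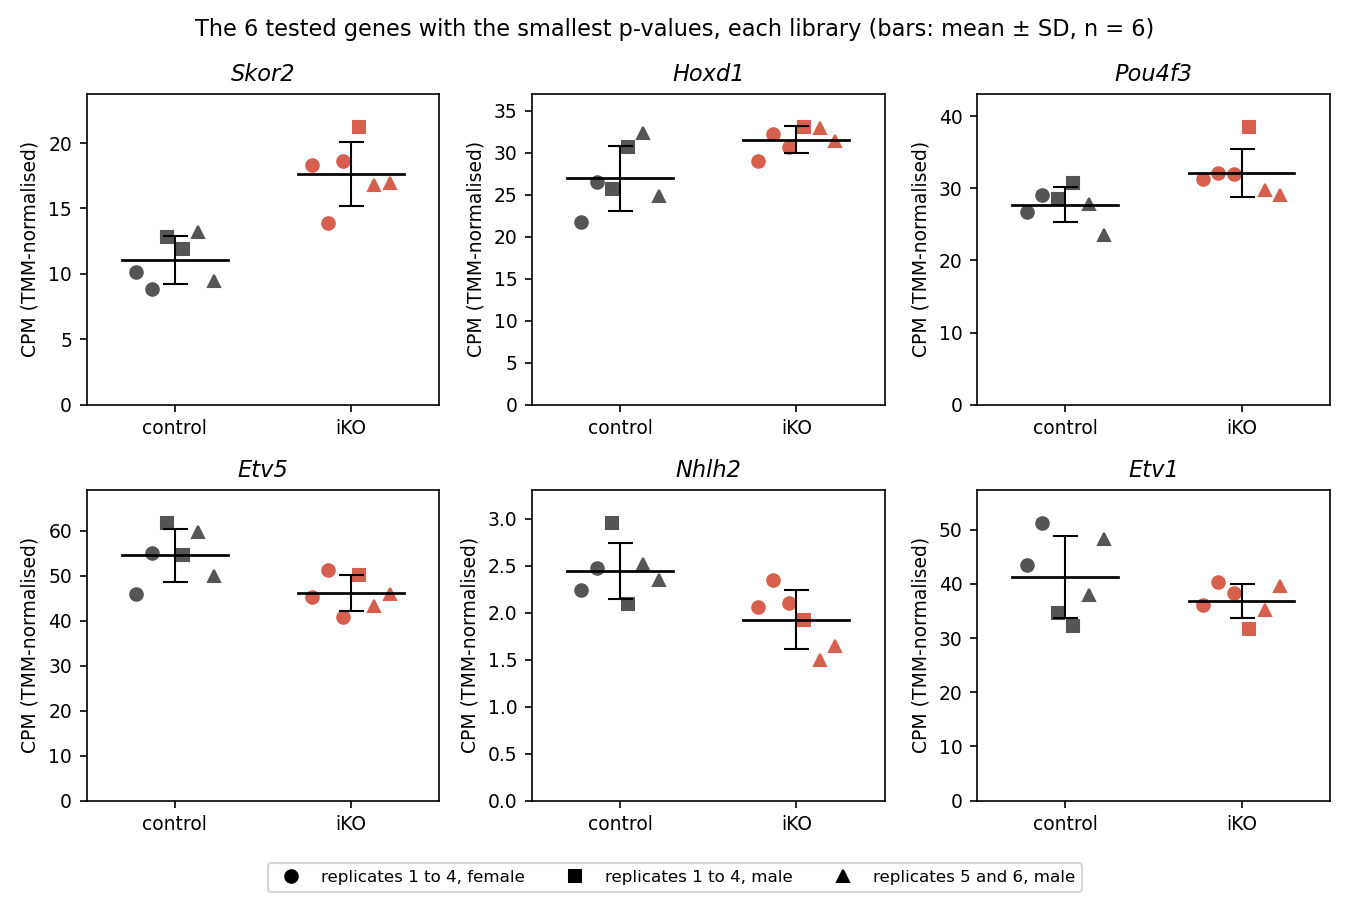
CPM in each library for the 6 tested genes with the smallest p-values; lines and bars are means ± SD (n = 6), and the marker shape gives replicate set and sex. Skor2 is the panel in which the groups do not overlap, from 8.87 to 13.2 CPM in controls and 13.9 to 21.2 CPM in iKO.

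The libraries differed in how many of the 28 genes stood above their own median over the 12 libraries. Control 6 had the fewest, 6 genes, and iKO 5 had 7; these also had the lowest summed pan-sensory neuron markers, at 20070 and 20660 CPM. Control 4 had the most, 20 genes, with 24740 CPM of neuron markers, and iKO 4 had 19 with 24790 CPM. High and low libraries were found in both groups. The part of these neuron marker levels in the single results was not tested. Scaled to them, Skor2 had a log2 fold change of 0.72 over the 12 libraries (adjusted p = 0.00948 by edgeR) and of 0.78 in replicates 1 to 4, where the call was lost (adjusted p = 0.059).

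**Figure D4:**
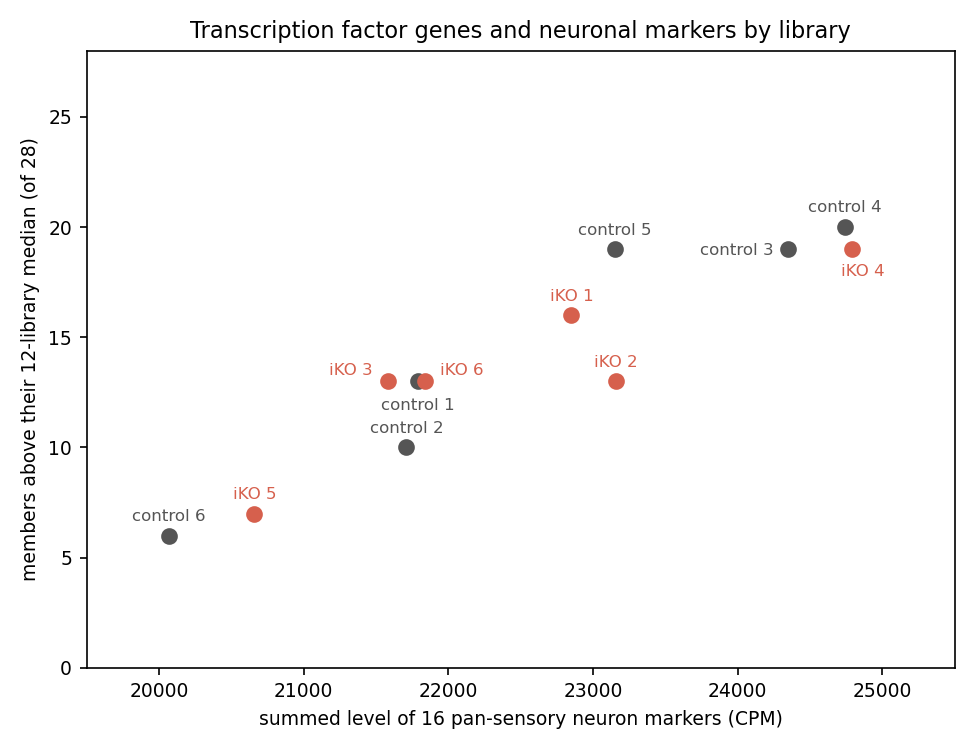
Number of the 28 tested genes above their own 12-library median in each library, against the summed level of 16 pan-sensory neuron markers in CPM. Control 6 and iKO 5 lie at the lower left with 6 and 7 genes, and control 4 and iKO 4 at the upper right with 20 and 19.

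The 11 fibroblast and meningeal markers summed to 2029 to 3629 CPM in controls and 1405 to 2639 CPM in iKO, and 2 of the 11, the transporters Slc22a6 and Slc22a8, fell by edgeR, with 6 of the 11 lower by DESeq2. Macrophage markers summed to 301 to 459.8 CPM in controls and 231.1 to 382.9 CPM in iKO, and lymphocyte markers to 6.37 to 24.14 and 5.50 to 9.69 CPM. All 10 macrophage markers and all 8 lymphocyte markers tested had negative log2 fold changes; none passed by edgeR or DESeq2, and 3 and 2 had an unadjusted p under 0.05. Markers of brain neurons, oligodendrocytes and astrocytes summed to 461.1 to 1258 CPM in controls and 409 to 695.4 CPM in iKO. Of the 11 tested, 10 had negative log2 fold changes, with a median of -0.676. None passed by edgeR, DESeq2 had 1 lower, and 2 had an unadjusted p under 0.05. The 13 nociceptor markers summed to 2700 to 3273 CPM in controls and 2527 to 3010 CPM in iKO. Of 11 myelinating Schwann cell markers 1 rose, Pmp22, a myelin protein (log2 fold change 0.36, edgeR adjusted p = 0.018); DESeq2 had 5 higher. All 10 skeletal muscle markers had positive log2 fold changes, with a median of 1.25. None of these passed by edgeR or DESeq2, and 3 had an unadjusted p under 0.05. Of all genes, edgeR called 0.379% and DESeq2 2%, and 10.9% had an unadjusted p under 0.05. The part of these lists in the results above was not tested.

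The controls of replicates 1 to 4 all had tamoxifen but differed in genotype from the iKO. Replicates 5 and 6 compared the same genotype with and without tamoxifen. Of the 2 corn oil controls, control 6 had the lowest Prdm12 of all controls, 56.84 CPM, and control 5 the highest, 132.7 CPM. The controls given tamoxifen had 88.03 to 122.6 CPM. Control 6 also had the lowest summed neuron markers and the highest summed satellite glia markers. In replicates 1 to 4, 1 of 28 genes rose, again Skor2, beside 0.114% of all genes called, 0.0541% higher and 0.0601% lower; DESeq2 also called it alone among the 28, beside 0.823% of all genes. At an unadjusted p under 0.05 there were 7 of the 28, 25% against 7.93% of all genes. With sex as a covariate, the log2 fold change of Skor2 there was 0.82 (SE 0.13, edgeR adjusted p = 0.0485). The means were 10.9 ± 1.77 CPM in controls and 18.0 ± 3.06 CPM in iKO (SD, n = 4 each). Without sex in the fit the log2 fold change was 0.72 (edgeR adjusted p = 0.141), and the call was lost. The call was also lost when any of 9 of the 12 libraries was left out, with adjusted p up to 0.308. Leaving out iKO 2, control 5 or control 6 kept it.

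In replicates 5 and 6, none of the 28 passed by edgeR or by DESeq2, beside 0.00601% and 0.421% of all genes called. At an unadjusted p under 0.05 there were 4 of the 28, 14.3% against 7.87% of all genes. Skor2 had 13.2 and 9.46 CPM in the controls and 16.8 and 16.9 CPM in iKO. Its log2 fold change there was 0.58 (SE 0.174, edgeR adjusted p = 0.577). At this size the test recovered 23% of genes simulated with a 1.5-fold change, again drawn from those with a mean of at least 1 CPM. Here too 100 genes were changed by each fold, where the data gave 1 call, so this share may be too high.

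The difference of the iKO effect between these replicate sets was called for no gene by edgeR (0% of all genes), and for none of the 28 by DESeq2 (0.0301% of all genes). At an unadjusted p under 0.05 there were 2 of the 28, 7.14% against 3.41% of all genes. For Skor2 the difference was -0.24 on the log2 scale (95% interval -0.72 to 0.24). Neurod1 had -0.32 in replicates 1 to 4 and 0.43 in replicates 5 and 6, a difference of 0.75 (unadjusted p = 0.0297, edgeR adjusted p = 1). Mafa had 0.34 and -0.12, a difference of -0.46 (unadjusted p = 0.039, edgeR adjusted p = 1). Lmx1b had -0.55 and 0.17, a difference of 0.72 (edgeR adjusted p = 1).

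**Figure D5:**
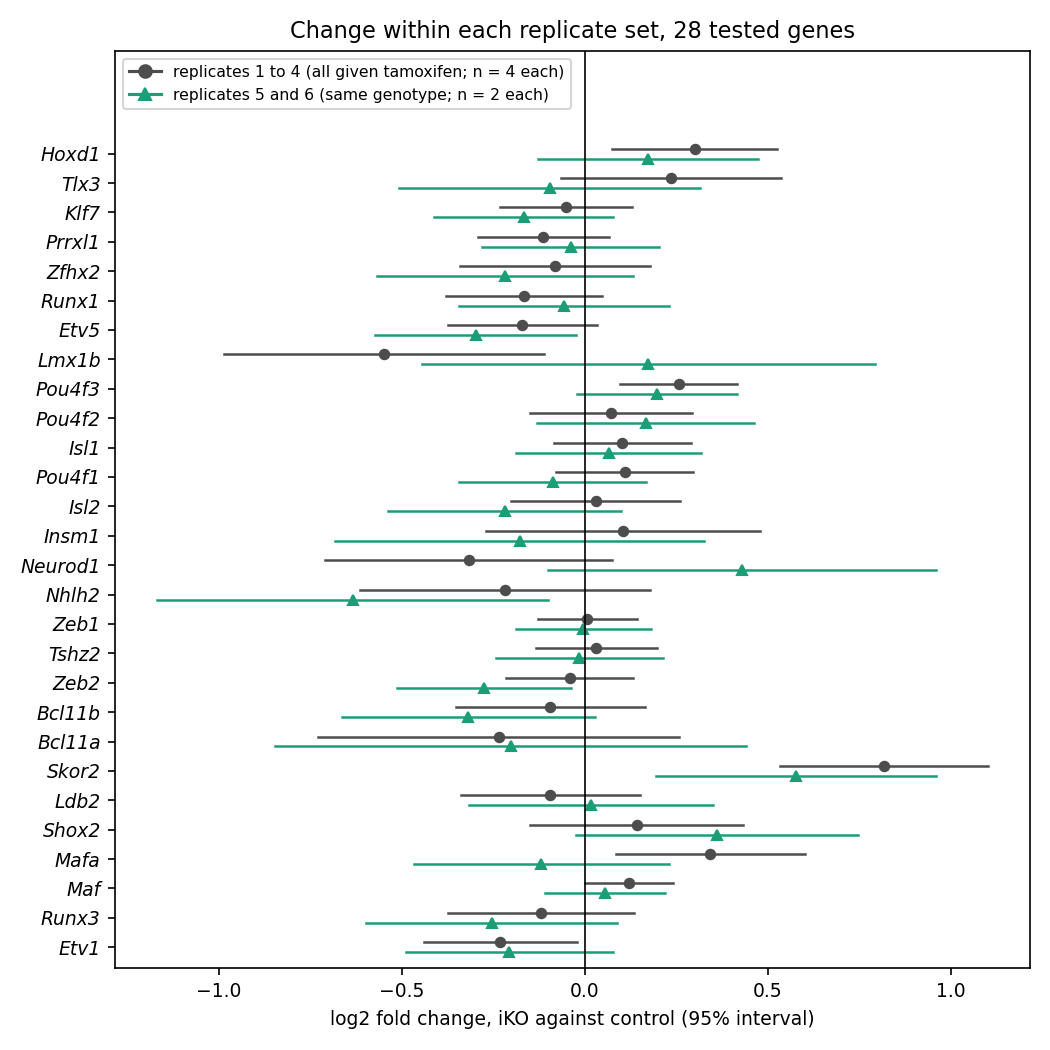
Log2 fold change with 95% intervals for the 28 tested genes, estimated in 1 model for replicates 1 to 4 (circles, n = 4 each) and replicates 5 and 6 (triangles, n = 2 each). Skor2 is positive in both, at 0.82 and 0.58. Neurod1, Mafa and Lmx1b are among the genes with opposite signs, as are Tlx3 and Insm1, and no difference between the sets was called.

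Sex was taken into account because the iKO were 3 females and 3 males and the controls 2 females and 4 males. The difference of the iKO effect between the sexes was called for none of the 28 and for no gene at all by edgeR or DESeq2 (0% of all genes), and none of the 28 had an unadjusted p under 0.05, against 1.91% of all genes. Between males and females, none of the 28 passed by edgeR, beside 0.108% of all genes called (0.0301% higher and 0.0781% lower in males), or by DESeq2, beside 0.301%. At an unadjusted p under 0.05 there were 3 of the 28, 10.7% against 10.2% of all genes. These were Tlx3 at 0.28, Isl2 at 0.23 and Zeb1 at -0.10 on the log2 scale, male against female (edgeR adjusted p from 0.474 to 0.49). Every female was in replicates 1 to 4, and replicates 5 and 6, with both corn oil controls, were all male. Both sex comparisons are therefore partly confounded with replicate set and, among controls, with injection.

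Genes that work with these factors were described by lists. Of 28 partners and corepressors, 25 were tested; none passed by edgeR and 2 were higher by DESeq2, beside 2% of all genes called by DESeq2. At an unadjusted p under 0.05, 6 were higher and 1 lower, 28% against 10.9% of all genes, and the median log2 fold change was 0.0106. The smallest p-values belonged to Lmo1, a LIM-only protein, at 0.30, and Tle1, a Groucho corepressor, at 0.20 (edgeR adjusted p = 0.143 for both; these were the 2 that DESeq2 called). Of 49 other transcription factors of sensory ganglia, 43 were tested; none passed by edgeR and 1, Foxp2, was lower by DESeq2, with 1 higher and 7 lower at an unadjusted p under 0.05 (18.6% of the 43) and a median of -0.05. Foxp2, a forkhead factor, had the smallest p there at -0.41 (edgeR adjusted p = 0.0823), followed by Ebf2 at -0.44 (adjusted p = 0.178).

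None of the 12 injury-induced transcription factors passed by edgeR or DESeq2. At an unadjusted p under 0.05 there was 1 (8.33% against 10.9% of all genes). Atf3, the usual marker of an injured sensory neuron, had 7.25 ± 0.884 CPM in controls and 9.09 ± 0.818 CPM in iKO (log2 fold change 0.31, edgeR adjusted p = 0.238). Jun, its partner, had a log2 fold change of 0.14 (adjusted p = 0.596).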

How the data were processed

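PolyA-selected, unstranded RNA-seq libraries of 12 trigeminal ganglion samples were deposited as gene counts. The submitters' processing notes name featureCounts 2.0.1 and STAR 2.7.8a, as well as bcl2fastq 2.20.0.422 and the GRCm39 build; which annotation and counting options the authors used is not given in the sources used here. Of 55416 gene IDs, 52083 matched a symbol in GENCODE M21, which was used for symbols, exon lengths and overlaps only; unmatched IDs hold 0.274% of counts.

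Counts were fitted with edgeR 4.0.16 (R 4.3.3; TMM, filterByExpr, quasi-likelihood test, sex as covariate) over all 16637 genes kept, with Benjamini-Hochberg adjustment and a threshold of 0.05. The tests were tested on simulated data. Replicate sets were fitted in 1 model. DESeq2 1.42.0 was an alternative. TMM factors were 0.969 to 1.02. Libraries of a group differed beyond sampling noise (chi-square per degree of freedom 7.16 to 26.2 over 30 pairs).

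The 30 genes and the other lists were chosen with earlier results of these data known. Genes were given in most detail where they passed a threshold, had groups that did not overlap, were among the 6 smallest p-values, or were among the 3 highest or 3 lowest in CPM. Of each pathway list, genes past the threshold were named, otherwise the 2 with the smallest p. The results of 1 further list, of genes reported to lie downstream of these factors, and the calls among the nociceptor markers are not reported here. Alternatives were other scalings, filters, covariates, sample subsets and leaving out each library.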

Additional observations from a re-analysis of the deposited data

Results flagged for a closer look

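In the iKO group, 1 library stood apart from the other 5 for 2 genes. Isl2 was at 169.9 CPM in iKO 4, while the next highest iKO library had 126.8 CPM. Pou4f3 was at 38.52 CPM in iKO 4, with the next highest at 32.11 CPM. These were the 2 cases among 60 combinations of gene and group examined by the gap to the nearest library, a rule that chance meets in about 1 of 20. iKO 4 also had the highest summed pan-sensory neuron markers, 24790 CPM; the part of that level was not tested.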

How the results depend on the processing

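Over all 12 libraries, the count of genes called (63; 29 higher, 34 lower) became 39 when scaled to neuron markers (12 higher, 27 lower), 138 with no filter, 332 with DESeq2, 15 with the replicate number as a block, 28 in tamoxifen-injected animals, 1 in animals with Cre and 2 floxed alleles, 1 in males and 4 in females. The count of listed factors called (1) became 0 under the block and in each of those 4 subsets. In replicates 1 to 4, genes called (19) became 621 with no filter, 137 with DESeq2, 3 with the block, 0 in males and 12 fitted alone; listed factors called (1) became 2 with no filter, and 0 when scaled to neuron markers, without sex, with the block or in males. In replicates 5 and 6, genes called (1) became 2 with RLE scaling or without sex, 1014 with no filter, 70 with DESeq2, and 0 in males or fitted alone; listed factors called (0) became 1 with no filter. The difference between the sets (0 genes) became 578 with no filter and 5 with DESeq2. Males against females (18 genes) became 11 scaled to neuron markers, 33 with no filter and 50 with DESeq2. The causes were not tested.

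Leaving out each library gave 23 to 88 genes and 0 to 1 factor over 12 libraries, with under 36 genes without control 1, 2, 3 or 5 or iKO 1, 5 or 6. It gave 2 to 18 genes and 0 to 1 factor in replicates 1 to 4, 1 to 26 genes in replicates 5 and 6 (26 without iKO 6), 0 to 15 genes for the difference between sets (15 without iKO 6) and 11 to 15 for sex.

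Of 1219 combinations of factor and setting, 1131 kept direction and call and 66 changed sign, 37 of these outside leave-one-out. Over 12 libraries the log2 fold changes that changed sign were as follows. Insm1 was 9.04e-05 with RLE, 0.00209 with library totals, 0.00235 scaled to neuron markers, 9.17e-05 with no filter, 0.00489 with the replicate set as covariate, 0.0208 in tamoxifen animals, 0.0411 in females and 0.0122 without control 6 and iKO 5. Zeb1 was 0.000944, 0.00422, 0.00331 and 0.00171 in the first 4 of these, 0.00157 with DESeq2, 0.0166 without sex, 0.0108 with the block, 0.00285 with the set, 0.00177 in Cre and 2 floxed animals and 0.0341 in females. Tshz2 was 0.0244 with the block, 0.0158 with the set, 0.0762 in Cre and 2 floxed animals, 0.0292 in females and 0.0101 without control 6 and iKO 5. Pou4f1 was -0.00513 without sex and -0.0565 in males. Neurod1 was 0.0478 with the block, 0.346 in Cre and 2 floxed animals and 0.0441 in males. In Cre and 2 floxed animals, Prrxl1 was 0.0249, Lmx1b 0.217 and Ldb2 0.0729. Klf7 was 0.0376 in females. In replicates 1 to 4, Tshz2 was -0.00481 scaled to neuron markers and -0.0217 without sex, and Isl1 -0.0336 in males. In replicates 5 and 6, Tshz2 was 0.0103 with library totals and 0.00961 scaled to neuron markers.

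Leaving out a library also changed the sign of Insm1 (-0.0688 to 0.0582), Zeb1 (-0.0445 to 0.0323), Tshz2 (-0.0508 to 0.0448), Pou4f1 (-0.0193 to 0.0724) and Neurod1 (-0.167 to 0.00853) over 12 libraries, of Klf7 in replicates 1 to 4 (-0.133 to 0.0296), of Hoxd1 (-0.00981 to 0.362), Isl1 (-0.0276 to 0.149) and Tshz2 (-0.14 to 0.106) in replicates 5 and 6, and of the Skor2 difference between sets (-0.473 to 0.00452).

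Correlations of same-numbered deviations from the group means were 0.35, 0.129, -0.396, 0.275, -0.0675 and 0.149, and no number matched its own best. Sex was not removed from these deviations. They cannot show whether same-numbered animals were related or handled together. The main fits did not treat the numbers as pairs. Depth limits Neurod6 and Nhlh1, and replicates 5 and 6 limit small changes.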
